A study of Homo sapiens with 8 samples.

Results

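The replication-dependent histone genes are the clustered genes that supply the linker histone H1 and the core histones H2A, H2B, H3 and H4 for newly made chromatin. They were taken by symbol as H1-1 to H1-6 and every numbered H2AC, H2BC, H3C and H4C gene. The rule found 61 of the 19073 gene symbols listed in the RNA-seq or Ribo-seq tables. It goes by symbol and uses no measured value, but it was chosen with earlier results of these data known. RNA-seq listed 51 of them and Ribo-seq 56, with 46 in both tables. By family they were 4 H1, 15 H2A, 17 H2B, 12 H3 and 13 H4 genes. Another 8 genes of the same naming in RefSeq, among them H2AC18, H3C15 and H4C12, were not analysed here.

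The cells were SH-SY5Y, an established human neuroblastoma line of noradrenergic type. One group carried a short hairpin RNA against RPS29, labelled shRPS29 with the genotype RPS29 knockdown, and the other a control hairpin, labelled shCONT with the genotype control. Each assay had 2 libraries per group, 8 in all. Both groups thus carried a hairpin, and the sources used here do not give the hairpin sequence, the number of hairpins or clones, or the time after introduction. RPS29 is a protein of the small ribosomal subunit. Nothing states that the replicates were separate cultures, so p-values measure only the spread between these libraries.

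Replication-dependent histone mRNAs are made in S phase, when DNA is copied, and most end in a conserved stem-loop in place of a poly(A) tail. The stem-loop binding protein SLBP holds that end through processing, export and translation, and NPAT switches the clusters on at the start of S phase. When DNA synthesis stops, the stem-loop end is uridylated and the mRNA is degraded. A few of the genes are also known to make polyadenylated mRNA. Ribo-seq counts short fragments protected by ribosomes, here called footprints, whereas RNA-seq counts fragments of the RNA itself.

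Several copies within a family have nearly the same coding sequence, so a short read can match more than one gene and the counts of single members are uncertain. How the authors assigned such reads is not given in the sources used here. Sums over a family were therefore given beside the single genes. Most members were short, with 53 of 61 spanning 387 to 797 bp in RefSeq, and the other 8 had annotated spans of at least 1000 bp. Among these, the span of H2BC12 contains H4C9, that of H4C15 contains H2AC19, and that of H3C4 overlaps H2AC7.

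The upstream sequences are shown because the members share promoter elements by family and most of them had lower footprints in the knockdown, with H4C16 as the 1 called exception. RefSeq (GRCh38.p14) gave a promoter window for 56 of the 61 members. For 7 genes that lead the results below, the 130 bases before the annotated start are printed 5′ to 3′ on the strand of the gene. Capitals mark CCAAT or its reverse ATTGG, the octamer ATTTGCAT, the H4 element GGTCCG and the TATA element TATAA, and the motifs were searched on both strands.
H1-4 (chr6:26156199-26156328, plus strand): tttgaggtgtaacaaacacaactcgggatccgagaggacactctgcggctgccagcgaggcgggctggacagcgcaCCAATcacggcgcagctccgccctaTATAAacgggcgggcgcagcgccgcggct
H2AC25 (chr1:228457874-228458003, minus strand): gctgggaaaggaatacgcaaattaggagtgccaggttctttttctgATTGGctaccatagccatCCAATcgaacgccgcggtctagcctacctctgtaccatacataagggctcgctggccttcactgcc
H2BC11 (chr6:27132796-27132925, minus strand): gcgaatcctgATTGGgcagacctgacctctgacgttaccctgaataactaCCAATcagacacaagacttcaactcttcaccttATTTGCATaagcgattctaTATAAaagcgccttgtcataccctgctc
H2BC12 (chr6:27146859-27146988, minus strand): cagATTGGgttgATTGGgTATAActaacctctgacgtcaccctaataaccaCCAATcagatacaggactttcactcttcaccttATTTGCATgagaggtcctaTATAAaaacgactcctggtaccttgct
H3C2 (chr6:26032100-26032229, minus strand): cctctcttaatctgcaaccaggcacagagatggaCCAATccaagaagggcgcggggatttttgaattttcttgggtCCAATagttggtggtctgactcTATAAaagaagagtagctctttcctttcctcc
H4C8 (chr6:26285535-26285664, minus strand): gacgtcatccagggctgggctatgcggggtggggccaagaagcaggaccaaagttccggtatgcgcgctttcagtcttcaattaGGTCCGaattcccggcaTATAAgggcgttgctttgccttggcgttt
H4C16 (chr12:14771132-14771261, minus strand): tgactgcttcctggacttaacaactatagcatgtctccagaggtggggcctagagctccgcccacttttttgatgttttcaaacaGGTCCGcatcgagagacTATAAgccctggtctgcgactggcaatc

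Over the full 250 bases before the start, CCAAT or its reverse was found in 4 of 4 H1, 14 of 14 H2A, 17 of 17 H2B and 10 of 10 H3 promoters, but in 3 of 11 H4 promoters. Of all 27305 RefSeq promoter windows of that length, 33.0% held it. ATTTGCAT or its reverse ATGCAAAT, which is bound by octamer factors, was in 10 of 14 H2A and 13 of 17 H2B promoters, in 1 of 10 H3 promoters and in 0 of the H1 and H4 promoters, against 1.66% of all. GGTCCG or its reverse CGGACC was in 11 of 11 H4 promoters, in 1 each of the H2A, H2B and H3 promoters and in 0 of 4 H1 promoters, against 9.33% of all. TATAA or its reverse TTATA was in 51 of 56 member promoters against 19.6% of all, and H1-2, H2AC25, H2BC26, H4C14 and H4C15 were without it. None of the motifs overlapped another in the printed sequences. H2A and H2B genes often lie head to head, as in 10 pairs counted here with starts 194 to 248 bases apart. Many of these H2A and H2B windows thus hold the same bases and their counts are not independent. The span of H2AC12 begins close to the start of H2BC12, but these genes were not among the pairs counted. H4C16, the member on chromosome 12, held the H4 element and TATAA as other H4 genes did. These matches are letters in a window and show no binding.

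RNA-seq libraries held 17539104 to 19156104 counts and Ribo-seq libraries 2630463 to 4375971. The hairpin target was measured first. RPS29 had 2430 and 2872 RNA-seq counts in the controls against 147 and 117 in the knockdown, a log2 fold change of -4.40, and 199 and 129 footprints against 28 and 28. Across all genes, Spearman correlations between libraries were 0.985 to 0.993 in RNA-seq and 0.455 to 0.827 in Ribo-seq. Ribo-seq knockdown replicate 1 stood apart, at 0.528 and 0.455 with the controls and 0.732 with its partner, which reached 0.743 with control replicate 1. Markers of noradrenergic neuroblastoma summed to 7243 to 7629 RNA-seq CPM (counts relative to library size) in the 4 libraries, although TH, a defining enzyme, had 4, 2, 1 and 0 counts. Epithelial markers summed to 4.0 to 8.36 CPM, blood markers to 6.71 to 14.5 CPM and fibroblast or mesenchymal markers to 228 to 305 CPM, most of it COL3A1. CD3E, which defines T cells, was not listed.

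Histone genes were seen far more in footprints than in RNA. In the controls the 56 listed members took 0.892 and 0.903% of all Ribo-seq counts, while the 51 in RNA-seq took 0.0164 and 0.0170%. For this comparison a member was called seen in footprints but little in RNA when its mean over the controls was at least 1 CPM in Ribo-seq and under 1 CPM in RNA-seq, scaled to total counts, or when RNA-seq did not list it. By that rule 41 of 61 members (67.2%) were seen in footprints but little in RNA, against 7.99% of all 19073 listed genes. They were 3 of 4 H1, 10 of 15 H2A, 9 of 17 H2B, 9 of 12 H3 and 10 of 13 H4 genes, and 10 of the 41 were not listed in RNA-seq. H4C8 lay just inside the limit at 0.983 RNA-seq CPM, with 655 Ribo-seq CPM, and H2BC6 just outside it at 1.06 CPM. At the footprint limit, H3C13 lay just inside at 1.02 Ribo-seq CPM.

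The ratio of Ribo-seq to RNA-seq CPM in the controls had a median of 95.8 over the 46 members in both tables, from 0.301 for H2AC25 to 5232 for H3C2. Over the 12873 genes in both tables the median ratio was 0.320, and it was 0.259 over the 9757 genes with at least 10 RNA-seq CPM. Across the 46 members, levels in the 2 assays hardly ranked together (Spearman rho -0.159), whereas rho was 0.666 across the 12873 genes. These correlations are descriptions across genes that share libraries and differ in length and depth. Per kilobase of annotated span, the highest footprint levels among members under 1 kb were 1561 CPM per kb for H1-4, 1555 for H3C2, 1478 for H4C8 and 1044 for H4C2. The highest RNA-seq levels were 60.3 CPM per kb for H2AC25, 26.3 for H4C14, 25.5 for H2AC19 and 24.8 for H2AC6. The 10 members with most RNA-seq counts and the 10 with most footprints shared only H2BC12 and H3C6.

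The members known to make polyadenylated mRNA as well, H1-2, H2AC6, H2BC5, H2BC12 and H2BC21, held 40.3 and 41.5% of the members' RNA-seq counts in the controls against 38.4 and 39.1% in the knockdown. They held 8.36 and 8.26% of the members' footprints in the controls against 11.2 and 9.54% in the knockdown. Per the labels, the RNA-seq libraries were made from total RNA with a stranded kit, and whether RNA was selected by its poly(A) tail is not given in the sources used here. The part of the library method in the low RNA-seq counts was not tested.

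**Figure D1:**
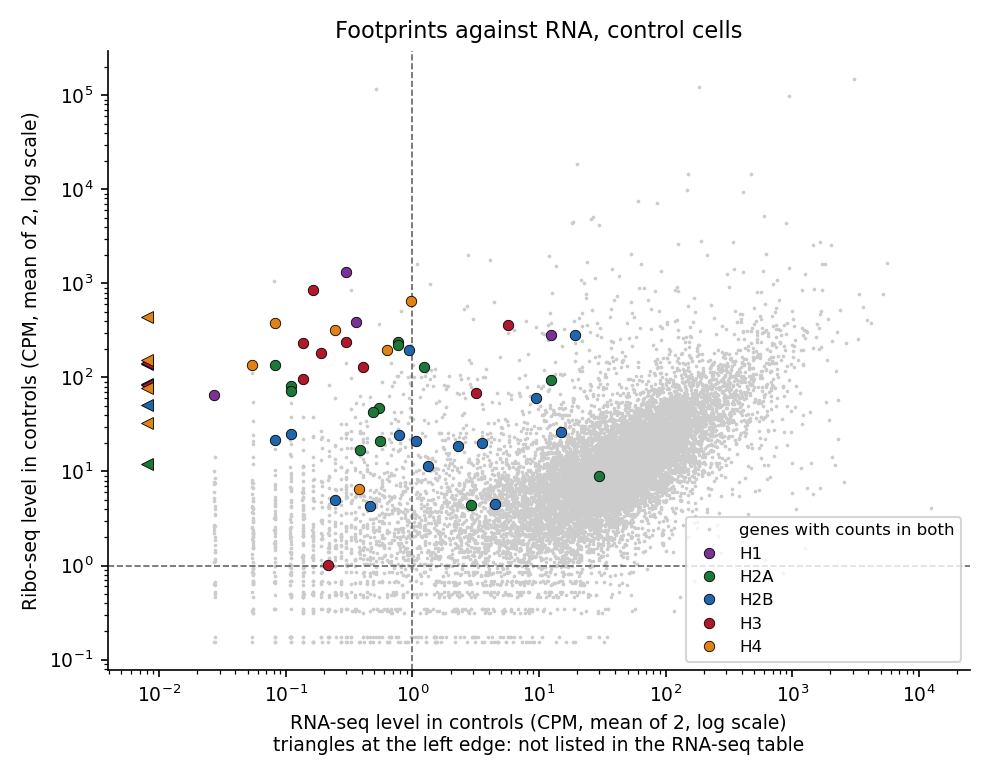
Ribo-seq level against RNA-seq level in the controls, each in CPM scaled to total counts as the mean of 2 libraries, on log axes, with grey points for all genes counted in both and coloured points for the histone genes by family. Dashed lines mark 1 CPM, and triangles at the left edge are the 10 members not listed in RNA-seq, so 41 of the 61 members lie in the upper left field.

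In the family accounts that follow, footprints are in CPM with TMM scaling (edgeR's trimmed mean of M values), and RNA-seq counts are raw and stand in the order control replicates 1 and 2, knockdown replicates 1 and 2. Over all genes tested, 26.7% were lower and 29.0% higher in the knockdown without overlap in Ribo-seq, and 32.9 and 32.3% in RNA-seq. The linker histones H1 bind DNA between nucleosomes and compact chromatin. H1-4 had 1210 and 1250 CPM in the controls against 407 and 792 CPM in the knockdown, with 4, 7, 15 and 5 RNA-seq counts. H1-5 had 329 and 384 CPM in the controls against 113 and 215 CPM in the knockdown, with 9, 4, 4 and 2 RNA-seq counts. H1-3 had 50.4 and 69.1 CPM in the controls against 19.1 and 27.3 CPM in the knockdown, with 0, 1, 2 and 1 RNA-seq counts. In each of these the knockdown libraries lay below both controls in footprints, and replicate 1 was the lower of the pair, while RNA-seq gave at most 15 counts in a library. H1-2 was the H1 gene with RNA to measure, with 206, 252, 186 and 113 RNA-seq counts. Its footprints were 241 and 276 CPM in the controls against 60.3 and 82 CPM in the knockdown. In H1-2 both assays put the knockdown below both controls.

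H2A forms a pair with H2B in the nucleosome core. Among the H2A genes with little RNA, H2AC8 had footprints of 247 and 183 CPM in the controls against 66.9 and 145 CPM in the knockdown, with 16, 12, 14 and 5 RNA-seq counts. H2AC17 had 143 and 277 CPM in the controls against 81.5 and 119 CPM in the knockdown, with 14, 14, 11 and 7 RNA-seq counts. H2AC12 had 124 and 124 CPM in the controls against 35.8 and 55.9 CPM in the knockdown, with 2, 1, 0 and 1 RNA-seq counts. Their footprint groups did not overlap. H2AC4 had 65.9 and 83.4 CPM in the controls against 40.3 and 49.7 CPM in the knockdown, with 3, 1, 1 and 4 RNA-seq counts. H2AC7 had 58.5 and 75.5 CPM in the controls against 24.1 and 37.9 CPM in the knockdown, with 3, 1, 5 and 0 RNA-seq counts. H2AC13 had 56.1 and 30.0 CPM in the controls against 14.1 and 15.3 CPM in the knockdown, with 14, 6, 5 and 4 RNA-seq counts. The knockdown was again below both controls in all 3. H2AC15 had 26.6 and 53.7 CPM in the controls against 20.8 and 15 CPM in the knockdown, with 9, 9, 8 and 3 RNA-seq counts. H2AC14 had 16.4 and 22.7 CPM in the controls against 6.65 and 13.5 CPM in the knockdown, with 16, 4, 11 and 3 RNA-seq counts. H2AC16 had 17.3 and 13.6 CPM in the controls against 10.8 and 7.52 CPM in the knockdown, with 8, 6, 5 and 4 RNA-seq counts. H2AC21, not listed in RNA-seq, had 10.7 and 11.2 CPM in the controls against 8.32 and 6.27 CPM in the knockdown. In these 4 as well the groups did not overlap, at lower levels and with smaller gaps.

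The H2A genes with RNA gave another picture. H2AC25, which lies apart on chromosome 1, had 520, 577, 423 and 306 RNA-seq counts. Its footprints were few and scattered, at 13.4 and 2.43 CPM in the controls against 17.5 and 7.78 CPM in the knockdown. H2AC6 had 219, 241, 227 and 177 RNA-seq counts, and footprints of 88.9 and 82.5 CPM in the controls against 67.8 and 132 CPM in the knockdown. In CPM the RNA of both was lower in each knockdown library than in each control, while their footprints overlapped. H2AC19, listed in RNA-seq alone, had 244, 241, 281 and 222 RNA-seq counts, and its groups overlapped. H2AC11 was lower without overlap in both assays, and H2AC20 had 51, 56, 31 and 34 RNA-seq counts but footprints of 4.48 and 3.64 CPM in the controls against 10.8 and 9.28 CPM in the knockdown, so in the knockdown its RNA lay below and its footprints above the controls. H2AC20 is given here because of that pattern, after its values were seen.

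H2B completes the pair, and its C-terminal part carries the ubiquitin mark tied to transcription. H2BC4 had footprints of 133 and 229 CPM in the controls against 54.1 and 78 CPM in the knockdown, with 25, 9, 13 and 5 RNA-seq counts. H2BC10, not listed in RNA-seq, had 106 and 155 CPM in the controls against 58.2 and 52.4 CPM in the knockdown. H2BC14, not listed either, had 61.5 and 98.9 CPM in the controls against 43.7 and 57.2 CPM in the knockdown. These groups did not overlap. H2BC3, also unlisted in RNA-seq, had 40.0 and 55.2 CPM in the controls against 13.7 and 14.3 CPM in the knockdown. H2BC7 had 18.2 and 21.5 CPM in the controls against 14.1 and 6.52 CPM in the knockdown, with 3, 0, 3 and 2 RNA-seq counts. H2BC17 had 13.7 and 33.1 CPM in the controls against 7.48 and 14 CPM in the knockdown, with 3, 1, 3 and 0 RNA-seq counts. H2BC3 and H2BC7 were lower in both knockdown libraries, and H2BC17 overlapped between groups. H2BC8 had 12.5 and 34 CPM in the controls against 15.8 and 12.5 CPM in the knockdown, with 13, 16, 14 and 12 RNA-seq counts. H2BC13 had 6.27 and 2.73 CPM in the controls against 2.91 and 2.51 CPM in the knockdown, with 3, 6, 14 and 3 RNA-seq counts. H2BC18 had 3.88 and 3.94 CPM in the controls against 3.33 and 5.77 CPM in the knockdown, with 7, 10, 31 and 13 RNA-seq counts. In these 3 the footprints overlapped, and H2BC18 was the member of the 3 whose RNA-seq counts lay above both controls in both knockdown libraries.

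Among the H2B genes with RNA, H2BC12 had 343, 359, 243 and 191 RNA-seq counts. Its footprints, 232 and 298 CPM in the controls against 243 and 195 CPM in the knockdown, overlapped between groups. H2BC5 had 270, 276, 195 and 138 RNA-seq counts, with footprints of 23.3 and 24.9 CPM in the controls against 16.6 and 31.9 CPM in the knockdown. Its RNA was lower in the knockdown and its footprints overlapped. H2BC21 was the reverse, with 164, 180, 179 and 172 RNA-seq counts and overlapping groups, but footprints of 59.1 and 51.2 CPM in the controls against 19.1 and 27.8 CPM in the knockdown, lower in both knockdown libraries. H2BC11 had 42, 42, 11 and 16 RNA-seq counts, and footprints of 8.35 and 27 CPM in the controls against 7.07 and 5.27 CPM in the knockdown. H2BC26, the head-to-head partner of H2AC25, had 70, 96, 50 and 34 RNA-seq counts, and footprints of 4.77 and 3.34 CPM in the controls against 0.832 and 3.26 CPM in the knockdown. In H2BC11 and H2BC26 the knockdown lay below both controls in both assays. Of the others, H2BC6, H2BC9 and H2BC15 had control means of 1.09 to 3.64 RNA-seq CPM and 10.2 to 19.4 Ribo-seq CPM.

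H3 forms the centre of the nucleosome with H4, and marks on its tail set apart active and silent chromatin. H3C2 had footprints of 728 and 861 CPM in the controls against 217 and 378 CPM in the knockdown, with 4, 2, 1 and 2 RNA-seq counts. H3C1 had 186 and 253 CPM in the controls against 109 and 137 CPM in the knockdown, with 7, 4, 6 and 5 RNA-seq counts. H3C12 had 143 and 291 CPM in the controls against 127 and 175 CPM in the knockdown, with 2, 3, 3 and 1 RNA-seq counts. Knockdown libraries were below both controls in H3C2 and H3C1 and overlapped in H3C12. H3C3 had 171 and 166 CPM in the controls against 96.9 and 108 CPM in the knockdown, with 2, 5, 4 and 6 RNA-seq counts. H3C8 had 99.6 and 139 CPM in the controls against 61.5 and 89 CPM in the knockdown, with 8, 7, 4 and 3 RNA-seq counts. H3C11, not listed in RNA-seq, had 60.0 and 95.2 CPM in the controls against 54.1 and 46.4 CPM in the knockdown. All 3 were lower without overlap. H3C4, not listed in RNA-seq either, had 130 and 135 CPM in the controls against 148 and 88.5 CPM in the knockdown. H3C7 had 89.8 and 86.1 CPM in the controls against 102 and 101 CPM in the knockdown, with 3, 2, 4 and 2 RNA-seq counts. H3C13, on chromosome 1, had 1.49 and 0.303 CPM in the controls against 0 and 5.77 CPM in the knockdown, with 0, 8, 2 and 3 RNA-seq counts. H3C4 and H3C13 overlapped, and H3C7 was slightly higher in both knockdown libraries. Of the H3 genes with RNA, H3C6 had 100, 107, 44 and 63 RNA-seq counts, and footprints of 407 and 254 CPM in the controls against 149 and 246 CPM in the knockdown, lower in the knockdown in both. H3C10 had 48, 69, 49 and 30 RNA-seq counts, and footprints of 72.8 and 52.5 CPM in the controls against 56.6 and 69 CPM in the knockdown, which overlapped. H3C14, listed in RNA-seq alone, had 25, 22, 35 and 0 RNA-seq counts, so its knockdown replicates disagreed.

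H4 pairs with H3, and its genes encode the same protein. Differences between them are thus between gene copies as counted, and the part of read assignment in them was not tested. H4C8 had footprints of 572 and 637 CPM in the controls against 235 and 295 CPM in the knockdown, with 19, 17, 20 and 16 RNA-seq counts. H4C1 had 331 and 370 CPM in the controls against 118 and 202 CPM in the knockdown, with 1, 2, 10 and 0 RNA-seq counts. H4C5 had 257 and 332 CPM in the controls against 73.6 and 140 CPM in the knockdown, with 4, 5, 10 and 4 RNA-seq counts. The knockdown lay below both controls in all 3 while the RNA-seq counts were few and overlapped. H4C2, not listed in RNA-seq, had 361 and 449 CPM in the controls against 153 and 200 CPM in the knockdown. H4C4, likewise unlisted, had 147 and 134 CPM in the controls against 36.6 and 55.7 CPM in the knockdown. H4C13, also unlisted, had 65 and 77 CPM in the controls against 27 and 21.8 CPM in the knockdown. Each lay clear below the controls, as did H4C6, unlisted too, at 31 and 28.5 CPM in the controls against 20.4 and 16.8 CPM in the knockdown. H4C3 had 102 and 151 CPM in the controls against 30.8 and 50.2 CPM in the knockdown, with 0, 2, 1 and 8 RNA-seq counts. H4C9 had 174 and 185 CPM in the controls against 220 and 113 CPM in the knockdown, with 15, 8, 13 and 3 RNA-seq counts. H4C3 was lower without overlap and H4C9 overlapped.

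H4C16, the isolated H4 gene on chromosome 12, went the other way. It had 27 and 12 footprint counts in the controls against 83 and 158 in the knockdown, or 8.06 and 3.64 CPM in the controls against 34.5 and 39.6 CPM in the knockdown. Its RNA stayed low, with 4, 10, 9 and 13 RNA-seq counts, which was too few to test.

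The H4 genes listed in RNA-seq alone were H4C11, H4C14 and H4C15. H4C11 had 26, 61, 59 and 48 RNA-seq counts. H4C14 had 228, 143, 75 and 246 RNA-seq counts. H4C15 had 82, 106, 196 and 0 RNA-seq counts. The replicates of H4C14 and of H4C15 differed in opposite directions in each group, and the sum of both genes was 310, 249, 271 and 246 counts. Promoter sequences of H4C14 and H4C15 were identical in 300 of 300 bases, against a median of 28.3% identical bases over the 333 pairs compared within families. The sequences compared here were longer than the 250 bases searched for motifs. Counts of these copies are therefore given as a sum as well as singly.

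**Figure D2:**
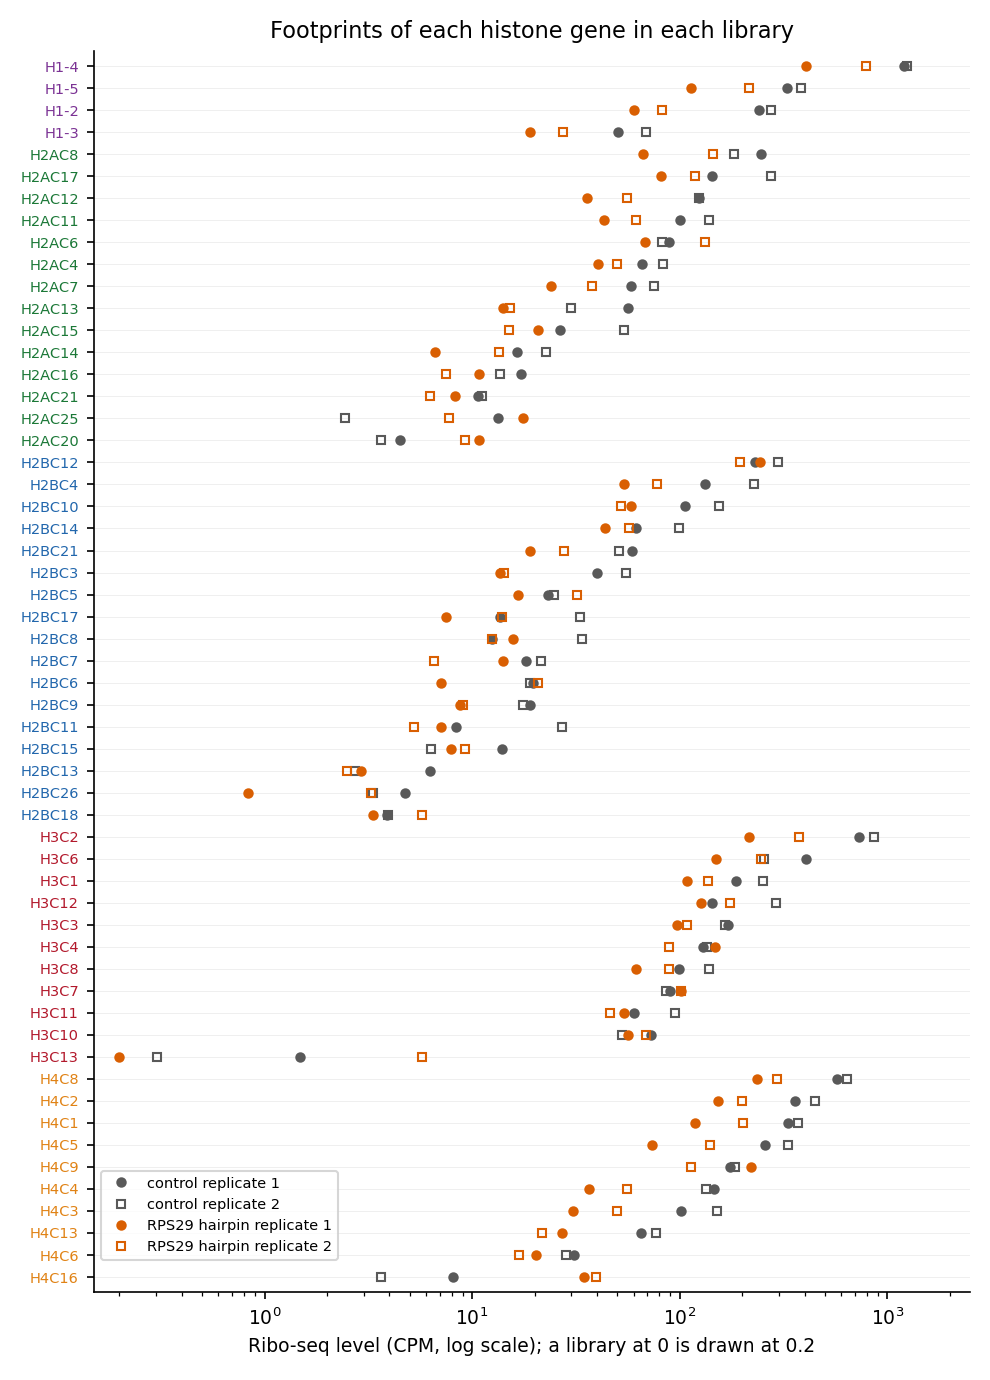
Ribo-seq level of each of the 56 listed members in each library, in CPM with TMM scaling on a log axis, ordered by family and control mean, with label colours for families. Filled and open grey symbols are the control replicates and orange symbols the knockdown replicates. The latter lie to the left of both controls in 38 members and to the right of both in H2AC20, H3C7 and H4C16. Over all genes tested, 26.7% were lower and 29.0% higher without overlap.

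RNA levels of the members leaned lower in the knockdown, and the test called 7 of them. Counts allowed a test of 28 of the 51 listed members, since the other 23 had at most 15 counts in a library. Lower at an edgeR adjusted p below 0.05 were H1-2, H2AC25, H2BC5, H2BC11, H2BC12, H2BC26 and H3C6, which is 25% of those tested against 16.3% of the 14723 genes tested. H2BC12 had 343 and 359 counts in the controls against 243 and 191 in the knockdown (log2 fold change -0.77, SE 0.131, edgeR adjusted p = 4.66e-04). H2BC11 fell most of the 7 and had 42 and 42 counts in the controls against 11 and 16 in the knockdown (log2 fold change -1.70, SE 0.413, edgeR adjusted p = 0.00608). H2BC26 fell by 1.06 and H3C6 by 1.02 on the log2 scale, and H1-2, H2AC25 and H2BC5 by 0.70, 0.67 and 0.79. Of these, H1-2, H2BC5 and H2BC12 are on the list known to make polyadenylated mRNA as well. The other members of that list did not pass the test, H2AC6 at -0.27 and H2BC21 at -0.05.

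No member was called higher, against 14.4% of all genes. DESeq2 and limma-voom called 0 higher and 7 lower too. Over all genes DESeq2 called 10.7% higher and 12.9% lower, and limma-voom 14.2 and 16.3%. At an unadjusted p below 0.05 edgeR gave 1 higher, H2BC18 at 1.27, against 19.7% of all genes. The median log2 fold change was -0.60 over the 28 members and 0.01 over all genes, and 25 of the 28 were below 0. The groups did not overlap in 14 members that were lower and in 2 that were higher, H2BC6 and H2BC18. Over all genes tested 32.9% were lower and 32.3% higher without overlap. Leaving out knockdown replicate 2 moved the median to -0.16 and gave 2 higher calls, H2BC18 and H4C15, against 18.1% of all genes, with H4C15 at 0 counts in the library left out. Leaving out control replicate 1 moved the members' median to -0.34, and leaving out knockdown replicate 1 moved it to -0.89. The call of H1-2 was lost without control replicate 2 or without knockdown replicate 2, and that of H2BC26 without control replicate 2.

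**Figure D3:**
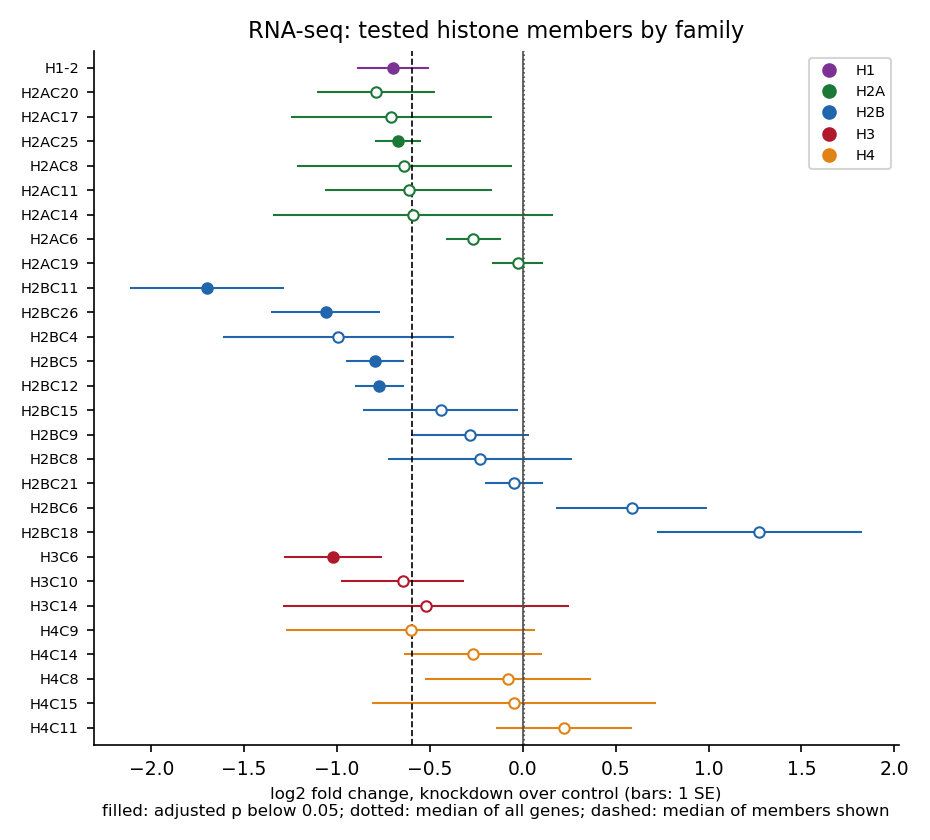
RNA-seq log2 fold change, knockdown over control, of the 28 tested members by family, with bars of 1 standard error. Filled points have an edgeR adjusted p below 0.05, and the 7 filled points all lie below 0. The dashed line is the members' median of -0.60 and the dotted line the median of all genes at 0.01.

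Footprints of the histone genes were lower in the knockdown in most members of every family, but no single decrease passed the edgeR test. Of 56 listed members 54 were tested, and H2BC13 and H3C13, with at most 23 counts, were not. The median log2 fold change was -0.95 over the members and 0.04 over the 11853 genes tested. Below 0 were 46 of 54 members (85.2%) against 48.7% of all genes. Both knockdown libraries lay below both controls in 38 of 54 members (70.4%), against 26.7% of all genes, and above both controls in 3 members, against 29.0% of all genes. The remaining 13 overlapped. Family medians were -1.24 in H1, -0.98 in H2A, -0.94 in H2B, -0.65 in H3 and -1.19 in H4.

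H1-2 had the smallest p among the lower members (log2 fold change -1.86, SE 0.566, edgeR adjusted p = 0.0505). H2BC3 followed at -1.76, H4C3 at -1.64, H4C4 at -1.61 and H4C13 at -1.54, with adjusted p of 0.0630 to 0.0904 in edgeR. H1-4, with the most footprints, was at -1.04 (SE 0.671). The members' median standard error was 0.578. edgeR called 0 members lower, against 0.607% of all genes, and 14 at an unadjusted p below 0.05, against 6.5% of all genes. DESeq2 called 6 lower (H1-2, H2BC3, H3C2, H4C3, H4C4 and H4C5), against 1.39% of all genes. limma-voom called 5 (H1-2, H2BC3, H4C3, H4C4 and H4C13), against 1.44% of all genes. H1-2, H2BC3, H4C3 and H4C4 were called by both.

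The level of all genes in Ribo-seq depends on the scaling. Scaled to total counts the median of all genes was -0.21, and scaled on genes of at least 10 RNA-seq CPM it was 0.29. The members' median lay 0.98 below that of all genes with TMM, 0.98 below with total counts and 1.00 below with the scaling on genes of at least 10 RNA-seq CPM. The 9099 tested genes of at least 10 RNA-seq CPM had a median of -0.21 with TMM, also above that of the members. Ribo-seq knockdown replicate 1 stood apart from the other libraries. Without it the members' median was -0.76 with 47 of 56 below 0, and without knockdown replicate 2 it was -1.23.

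H4C16 was the 1 member called higher, against 7.96% of all genes (log2 fold change 2.66, SE 0.637, edgeR adjusted p = 0.0155, a 6.31-fold increase). The call was lost with total counts (log2 fold change 2.38, adjusted p = 0.0506), without control replicate 1 (3.30, adjusted p = 0.0552), without control replicate 2 (2.17, adjusted p = 0.353) and without knockdown replicate 2 (2.47, adjusted p = 0.0911). Its value stayed above 2 in log2 in each of these. H2AC20 (1.30) and H3C7 (0.20), the other members without overlap above the controls, did not pass the test.

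**Figure D4:**
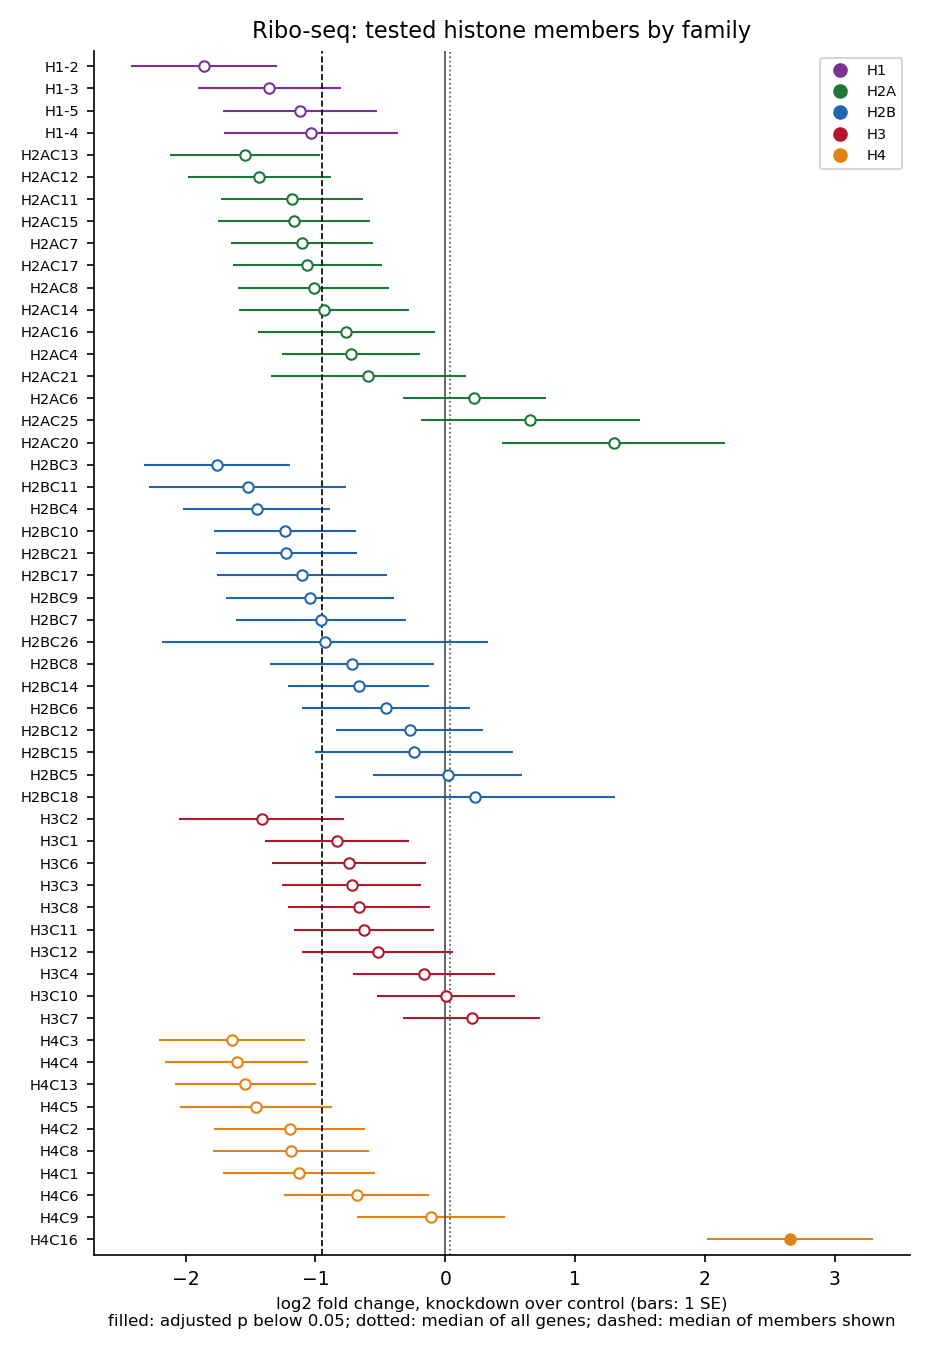
Ribo-seq log2 fold change, knockdown over control, of the 54 tested members by family, with bars of 1 standard error. The 1 filled point, H4C16, has an edgeR adjusted p below 0.05, 46 points lie below 0, the dashed line is the members' median of -0.95 and the dotted line the median of all genes at 0.04.

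Sums over the listed copies of a family are the same however reads were divided among those copies, but not if reads were dropped or given to copies not listed. Summed footprints of all members were 7713 and 8859 CPM in the controls against 3641 and 4916 CPM in the knockdown, or 51.6% of the control mean. The 2 knockdown libraries were at 43.9 and 59.3% of it. By family the knockdown mean was 45.1% of the control mean for H1, 54.3% for H2A, 57.7% for H2B, 58.0% for H3 and 47.2% for H4. In each family both knockdown libraries lay below both controls. The share of all Ribo-seq counts, which needs no scaling factor, went from 0.892 and 0.903% to 0.333 and 0.448%.

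Summed RNA was 168.0 and 175.7 CPM in the controls against 137.3 and 111.7 CPM in the knockdown, or 72.5% of the control mean. It was 63.9% for H1, 73.8% for H2A, 68.1% for H2B and 59.0% for H3, each without overlap. For H4, with 9 genes listed, it was 94.4%, with 21.4 and 19.7 CPM in the controls against 20.1 and 18.7 CPM in the knockdown, which overlapped. H4C14 and H4C15 together held 310, 249, 271 and 246 of the 379, 354, 393 and 338 H4 RNA-seq counts. Neither was listed in Ribo-seq, nor was H4C11, so the H4 sums of the 2 assays rest largely on different genes. The family sums are descriptions of 2 libraries a group and carry no test. In bulk cells, fewer cells in S phase and less histone RNA per cell cannot be told apart.

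**Figure D5:**
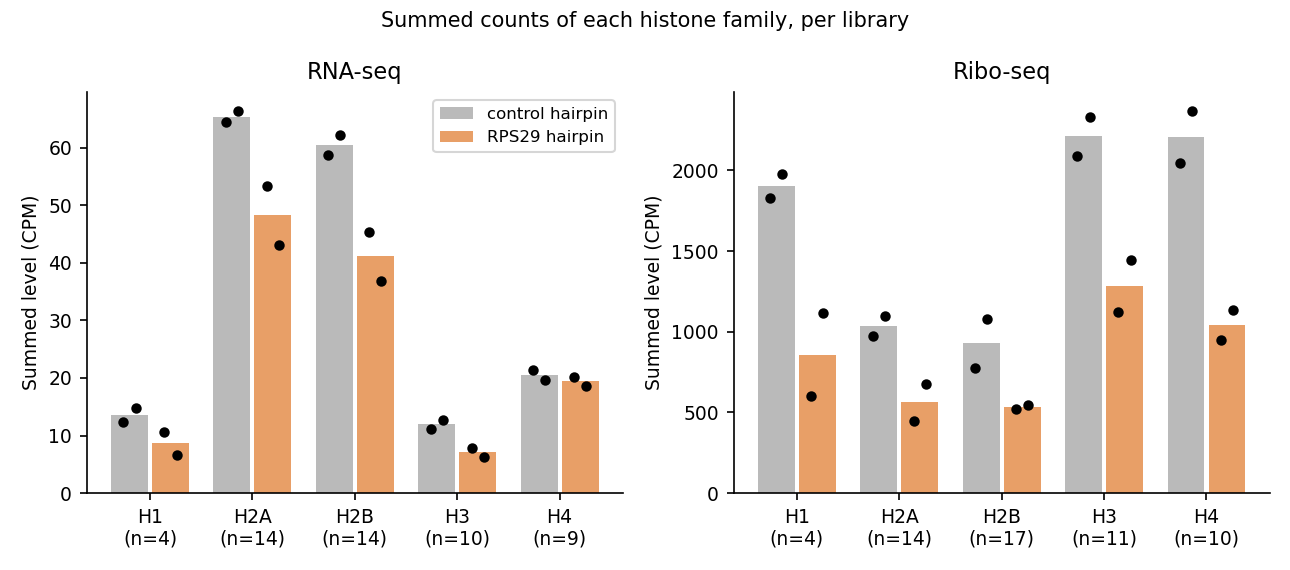
Summed CPM with TMM scaling of each histone family in RNA-seq (left) and Ribo-seq (right), with bars for the mean of 2 libraries and points for the libraries. The number of listed genes stands under each family. All knockdown points lie below both controls except for H4 in RNA-seq.

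Translational efficiency is the footprint change relative to the RNA change, tested as the interaction of assay and condition over all 8 libraries. It could be tested in 23 members that passed the count filter in both assays, so most members with little RNA were left out. edgeR called 0 higher, against 2.9% of all genes, and 0 lower, against 1.35%. At an unadjusted p below 0.05, 3 of 23 were lower, which is near the 12.9% of all genes, and 1 was higher, against 13.8%. Those were H1-2 at -1.16, H2BC21 at -1.18, H4C8 at -1.11 and H2AC20 at 2.09, the last with the smallest adjusted p of 0.114. DESeq2 called H2AC20 higher, against 11.8% of all genes, and H2BC21 lower, against 8.71%, and limma-voom called 0 in either direction. The members' median was -0.34 against -0.06 over all 10648 genes tested, and 12 of 23 were below 0 (52.2% against 52.0% of all genes). Without Ribo-seq knockdown replicate 2, edgeR called H2AC20 higher, against 15.6% of all genes, and 4 members lower (H1-2, H2BC6, H2BC21 and H4C8), against 19.6%.

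The members lie in 3 groups on chromosome 6, 2 on chromosome 1 and 1 gene on chromosome 12, with positions from RefSeq (GRCh38.p14). The first chromosome 6 group, chr6:26020451-26285534, had 29 members and took 75.5% of the members' control footprints but 33.4% of their control RNA-seq counts. The second, chr6:27132316-27147562, had 5 members with 8.51% of footprints and 14% of RNA. The third, chr6:27807479-27893891, had 15 members with 14.8 and 6.26%. The chromosome 1 groups, chr1:149782689-149887965 with 9 members and chr1:228457364-228458558 with 2, took 0.906 and 0.145% of footprints but 25.6 and 20.6% of RNA. Of the 9, H2AC19, H3C14, H4C14 and H4C15 were not listed in Ribo-seq, and H2AC21 was not listed in RNA-seq. Among them H2AC19 had 244 and 241 control RNA-seq counts and H4C14 had 228 and 143. The 2 shares of that group thus rest in part on different genes. By place, on chromosome 6, 43 of 47 tested members were below 0 with a median of -1.04, and off it 3 of 7 were below 0 with a median of 0.23. Off chromosome 6, H2BC21 had a control mean of 55.2 footprint CPM with TMM scaling and was at -1.23. The other tested members there had few footprints, with control means of 3.91 to 10.98 CPM. Their values ranged from -0.93 for H2BC26 to 2.66 for H4C16, with standard errors of 0.637 to 1.25. Place was thus not separated from footprint level, and the difference between the places was not tested.

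Head-to-head H2A and H2B genes share the stretch between their starts. In the controls the footprint CPM of the H2A gene was 0.0736 to 9.57 times that of its H2B partner over the 10 pairs counted. The highest ratio was that of H2AC13 over H2BC13. Further, H2AC8 had 9.25 times the footprint CPM of its partner H2BC8, H2AC17 had 8.96 times that of H2BC17 and H2AC11 had 6.75 times that of H2BC11, while H2AC6 had 0.473 times that of H2BC4, H2AC14 0.244 times that of H2BC14 and H2AC20 0.0736 times that of H2BC21. These genes are of like length, except that H2BC4 and H2BC21 have longer annotated spans. Both partners were below 0 in Ribo-seq in 6 of the 9 pairs tested in both. In the other 3, H2AC6, H2AC20 and H2AC25 were above 0 and H2BC4, H2BC21 and H2BC26 below it. The neighbours H2AC12 and H2BC12, not among the pairs counted, were at -1.43 and -0.27.

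Genes that make, process, degrade or handle histones were followed by lists. Of 20 genes of histone transcription and 3′ end processing, 2 were higher and 1 lower in RNA-seq, below the 14.4 and 16.3% of all genes. These were ZNF473 (0.74) and LSM10 (0.44), parts of the machinery that recognises the histone pre-mRNA, and NCBP2 (-0.52), a subunit of the nuclear cap-binding complex. The call of LSM10 was lost without control replicate 1. SLBP, the stem-loop binding protein, had 1331 and 1482 RNA-seq counts in the controls against 1666 and 1405 in the knockdown (log2 fold change 0.05). Its footprints were 104 and 84 counts in the controls against 9 and 32 in the knockdown (log2 fold change -2.23, SE 0.653, edgeR adjusted p = 0.0429). It was the 1 gene of the list called in Ribo-seq, and its translational efficiency was called lower too (-2.25, SE 0.465, edgeR adjusted p = 0.0424). The latter call was lost without Ribo-seq control replicate 2 and without the count filter (edgeR adjusted p = 0.0570). Without any 1 of the RNA-seq libraries it was lost too, but so was every other lower call of translational efficiency. The Ribo-seq call of SLBP was lost with limma-voom (adjusted p = 0.0594) and with the scaling on genes of at least 10 RNA-seq CPM (edgeR adjusted p = 0.0811). Without any 1 of the 4 Ribo-seq libraries it was lost too, but few genes of any kind were called lower there. Over all genes, edgeR called 0.607% lower in Ribo-seq and 1.35% lower in translational efficiency. NPAT, the transcriptional coactivator of the clusters, had footprints of 34 and 69 counts against 18 and 25 (-1.18, not called) and an RNA change of -0.15.

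Of 15 genes of histone mRNA decay, 0 were higher and 1 lower in RNA-seq, against 14.4 and 16.3% of all genes. The lower gene was XRN1 (-0.73), the main cytoplasmic 5′ exonuclease. In Ribo-seq 0 were called, against 7.96% higher and 0.607% lower over all genes. LSM1, of the ring that binds the uridylated end, was called lower in translational efficiency (-2.07, edgeR adjusted p = 0.0473), against 1.35% of all genes. Of 18 chaperones and importers of histones, 1 was higher and 5 lower in RNA-seq, against 14.4 and 16.3% of all genes. MCM2 at -0.64, NAP1L1 at -0.46 and NASP at -0.46 had the smallest p. Of the lower calls, those of ASF1B and IPO5 were lost without control replicate 1 and without control replicate 2, as was the higher call, SSRP1. In Ribo-seq 0 of the 18 were called, against 7.96% higher and 0.607% lower over all genes. All 18 were below 0, against 58.5% of the genes of at least 10 RNA-seq CPM, and the median was -0.91, against -0.21 in those genes. Of 18 S-phase genes 1 was higher and 5 lower in RNA-seq, against 14.4 and 16.3% of all genes. MCM6 (-0.70), RRM1 (-0.56) and RRM2 (-0.50), for DNA unwinding and nucleotide supply, had the smallest p. The lower call of MCM4 and the higher call of E2F1 were each lost without control replicate 1 and without control replicate 2. In Ribo-seq RRM2 was called lower (-1.92, SE 0.561, edgeR adjusted p = 0.0427), against 0.607% of all genes. The S-phase list's median was -1.08 over 16 genes, against -0.21 in the genes of at least 10 RNA-seq CPM. Of the 16, 11 were below 0, against 58.5% of those genes, and MCM7, CDT1, UNG, CDC45 and POLA1 were above it. RRM2 and GINS2, a subunit of the replicative helicase, were called lower in translational efficiency (-1.41 and -1.72, edgeR adjusted p = 0.0450 and 0.0477), against 1.35% of all genes. Like that of LSM1, these calls were lost without the count filter and with the scaling on genes of at least 10 RNA-seq CPM. Those settings called 0.466 and 0.742% of all genes lower. Each call was also lost without Ribo-seq control replicate 2. Without any 1 of the RNA-seq libraries these calls were lost too, but so was every other lower call of translational efficiency. The Ribo-seq call of RRM2 was lost with the scaling on genes of at least 10 RNA-seq CPM, under which 0.186% of all genes were called lower. Without any 1 of the 4 Ribo-seq libraries it was lost too, but few genes of any kind were called lower there. Ribo-seq medians near the members' -0.95 were thus seen in the chaperone and S-phase lists, but also in the noradrenergic neuroblastoma markers, at -1.02 with 8 of 10 below 0. The replacement histone variants were at -0.80, and the processing and decay lists at -0.53 and -0.59. Their part in the members' change was not tested.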

How the data were processed

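RNA-seq and Ribo-seq of SH-SY5Y cells were deposited by the authors as raw counts per gene symbol, 1 table per assay. The submitters' processing notes name featureCounts, STAR, Bowtie2, Salmon, Trim Galore and build hg38. The sources used here do not say which tool made each table, its version, or how reads that match several copies were handled. Per the labels' protocols, Ribo-seq lysates with cycloheximide were digested with RNase I, and single ribosomes were isolated by size. Every row totals at least 3 counts. Counts were fitted across each whole table with edgeR 4.0.16 (R 4.3.3; quasi-likelihood F test, TMM scaling, filterByExpr, Benjamini-Hochberg adjustment over all genes tested, threshold 0.05), with 2 libraries per group. Standard errors are the absolute log2 fold change over the square root of F. Translational efficiency was the interaction of assay and condition over 8 libraries, with 1 dispersion per gene for both assays. The fits were tested on simulated data. DESeq2 1.42.0, limma-voom (3.58.1) and other alternatives are in the closing section. Family sums, ratios and shares carry no test.

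The histone genes were chosen by symbol, and members, lists and tests were chosen with earlier results of these data known. Values in every library are given for called members, for the members of each family with most RNA or footprints, and for those seen in footprints but little in RNA. Of the lists, SLBP, NPAT and genes called in RNA-seq or Ribo-seq were named, or the 3 with the smallest RNA-seq p where 6 or more were called. Other list genes named were chosen after their values were seen. Some genes are not reported here.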

Additional observations from a re-analysis of the deposited data

How the results depend on the processing

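The 7 lower RNA-seq calls stayed 7 with other size factors, total counts, DESeq2, limma-voom, no count filter and the replicate block. They were 4 of 8 members when at least 50 counts in every library were required, since fewer members were tested. Lower RNA-seq calls over all genes were 16.3% and became 16.2, 12.1, 12.9, 16.3, 12.9, 13.9 and 19.7% in the same order. Leaving out 1 RNA-seq library put the members' median log2 fold change between -0.89 and -0.16. The 0 lower Ribo-seq calls became 1 with total counts, 1 with no count filter, 4 with at least 50 counts, 5 with limma-voom, 6 with DESeq2 and 8 with the replicate block (H1-2, H2AC12, H2BC3, H2BC4, H4C3, H4C4, H4C5 and H4C13). Lower calls over all genes were 0.607% and became 0.65, 0.635, 2.73, 1.44, 1.39 and 3.35% in the same order. Leaving out 1 Ribo-seq library put the members' median log2 fold change between -1.23 and -0.76. Few genes of any kind were called lower in those fits, so the members' calls there are not read. The 1 higher Ribo-seq call, H4C16, became 0 with total counts and with at least 50 counts, and was 0 to 1 without 1 library. For translational efficiency, the 0 higher and 0 lower calls became 1 and 1 with DESeq2, and were 0 to 1 and 0 to 4 without 1 library, under which up to 15.6 and 19.6% of all genes were called. With the replicate block the translational efficiency calls of SLBP, LSM1, RRM2 and GINS2 were lost (edgeR adjusted p = 0.0737 to 0.0794). Under that setting 0 of all 10648 genes tested were called lower, so the loss was not particular to these genes. The cause of these shifts was not tested. No called value changed sign under any alternative run. The count of 41 members seen in footprints but little in RNA was 33 with limits of 0.5 CPM, 43 with limits of 2 CPM, and 40 to 41 without 1 control library.

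Samples with the same replicate number share only that number. Deviations from the group means of same-numbered libraries had a correlation of -0.045 in RNA-seq and 0.122 in Ribo-seq, over the genes tested. With 2 libraries a group and Ribo-seq totals of 2630463 to 4375971 counts, the members' median standard error was 0.578 in Ribo-seq and 0.389 in RNA-seq. The 23 members with at most 15 RNA-seq counts were not tested there.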

Other observations

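Histone variants outside the rule were measured too. Of 11 replacement variants tested in RNA-seq, 7 were lower at an edgeR adjusted p below 0.05, against 16.3% of all genes. In the same test 1 was higher, against 14.4%. Of 9 tested in Ribo-seq, 1 was lower, against 0.607%. H2AX, which marks DNA breaks, had 6730 and 7190 RNA-seq counts in the controls against 2593 and 2285 in the knockdown (log2 fold change -1.59), and 176 and 192 footprint counts against 26 and 70 (-1.95, edgeR adjusted p = 0.0415). CENPA, the centromere variant of H3, was at -0.96 in RNA-seq. H3-3A had 21756, 24366, 21926 and 17127 RNA-seq counts but 9, 0, 1 and 3 footprint counts. H3-3B, which encodes the same protein, had 64, 97, 42 and 65 footprint counts with 15346, 16165, 15725 and 13739 RNA-seq counts. H3-4, not listed in RNA-seq, had 1 and 0 footprint counts in the controls against 13 and 22 in the knockdown and did not pass the test (edgeR adjusted p = 0.0831). These genes were chosen after their values were seen.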
